A study of Mus musculus with 12 samples.

Results

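Acta2, Tagln, Myl9, Cnn1, Tpm2, Des, Myh11 and Rgs5 are 8 genes of contractile mesenchymal cells, found here by their symbols among the 31053 genes listed for the embryonic stage (E16.5, in days after conception) and the 22597 listed for postnatal day 3 (P3). They were chosen with the E16.5 genotype comparison of mesenchymal cells already known, in which Tagln and Acta2 were the collagen and fibrosis genes with lower values in homozygotes. For the members, that comparison is therefore given below as a description with no p-value. Whole mouse liver was dissociated and its cells were sequenced singly in droplets, where each captured RNA molecule is counted once through its unique molecular identifier (UMI). The animals came from crosses of heterozygotes and were Jag1+/+, Jag1Ndr/+ or Jag1Ndr/Ndr, where Ndr is the Nodder missense allele of the Notch ligand gene Jag1. The labels listed 12 samples, 2 individuals for each genotype at each stage. No transgene or Cre driver was named, and all groups were handled as whole liver with dead cells removed on magnetic columns. Homozygous P3 pups were picked by their jaundice, and TrypLE was used in the digestion at E16.5 only.

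The 12 deposited matrices held 9 separate libraries. At E16.5 these were Jag1+/+ replicate 1, Jag1Ndr/+ replicate 1, Jag1Ndr/Ndr replicates 1 and 2, and a shared library whose identical matrix was deposited both as Jag1+/+ replicate 2 and as Jag1Ndr/+ replicate 2. It was counted as 1 sample. At P3, libraries A and B were deposited under Jag1+/+, and many of their barcodes recurred in matrices with a homozygous label, so their genotype is unclear. Of the barcodes of library A, 68.4% recurred under homozygous replicate 1, where 892 of 19927 had identical counts. Of those of library B, 73.8% recurred under homozygous replicate 2, where 3110 of 16145 had identical counts. Every barcode of the matrix labelled Jag1Ndr/+ replicate 2 was also a barcode of library B. Library C had only a homozygous label and library D only a heterozygous one. Libraries held 75745209 to 258642858 UMIs, with medians of 5325 to 9256 UMIs per passing barcode at E16.5 and 2961 to 6235 at P3. Barcodes marked as doublets made up 5.95% to 30.4% of a library at E16.5 and 4.04% to 9.71% at P3, and were removed.

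The 8 genes build and regulate the contractile apparatus of smooth muscle, pericytes and activated stellate cells. Acta2 encodes smooth muscle alpha-actin, Tagln the actin-binding protein transgelin, Cnn1 calponin 1, Tpm2 beta-tropomyosin and Des the intermediate filament protein desmin. Myl9 encodes a regulatory light chain of myosin, Myh11 the smooth muscle myosin heavy chain, and Rgs5 a regulator of G protein signalling used as a pericyte marker. In liver, stellate cells store vitamin A and can turn into contractile, collagen-producing cells. Smooth muscle cells and pericytes, together called mural cells, surround the vessels of the portal tract, and Notch signalling from endothelial Jag1 is known to act in their development. Many genes of this kind are switched on by serum response factor, encoded by Srf, which binds a motif called the CArG box.

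RefSeq promoters on GRCm38.p6, from 250 bases before to 50 after the annotated start, were matched for 6 of the 8 genes. A CArG box was found in Myl9 and none in Acta2, Des, Rgs5, Tpm2 or Cnn1. On both strands, the CArG box occurred in 535 of 32851 promoters (1.63%), and a version with 1 mismatch in 2792 (8.50%). The Myl9 and Acta2 promoters are printed because they were the members with a match of either kind. Each is written 5′ to 3′ along the strand of the gene, and capitals mark the matches. The matches are a description of these letters and not evidence of binding.

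Myl9 promoter, chr2:156775214-156775513, plus strand: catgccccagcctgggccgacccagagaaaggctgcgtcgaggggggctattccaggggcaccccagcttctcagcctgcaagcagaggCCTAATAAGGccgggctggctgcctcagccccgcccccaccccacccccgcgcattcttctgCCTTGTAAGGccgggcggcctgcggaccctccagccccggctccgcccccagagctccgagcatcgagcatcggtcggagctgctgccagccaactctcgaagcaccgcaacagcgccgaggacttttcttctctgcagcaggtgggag

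Acta2 promoter, chr19:34255324-34255623, minus strand: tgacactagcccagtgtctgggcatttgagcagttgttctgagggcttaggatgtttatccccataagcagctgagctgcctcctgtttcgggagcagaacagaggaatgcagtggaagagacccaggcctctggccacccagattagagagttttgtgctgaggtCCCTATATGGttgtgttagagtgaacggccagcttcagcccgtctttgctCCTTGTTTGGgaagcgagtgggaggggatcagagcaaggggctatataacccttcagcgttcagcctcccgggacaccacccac

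In Myl9, the capitals begin 161 bases upstream of the start, with the CArG box CCTAATAAGG, and 99 bases upstream, with the 1-mismatch version CCTTGTAAGG. In Acta2, both are 1-mismatch versions, CCCTATATGG at 84 bases and CCTTGTTTGG at 34 bases upstream.

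By Ensembl identifier in GENCODE M21 on GRCm38, Des lies on chromosome 1 (75360329 to 75368579, plus strand) and Rgs5 on chromosome 1 (169655501 to 169695813, plus strand). Myl9 lies on chromosome 2 (156775420 to 156781658, plus strand) and Tpm2 on chromosome 4 (43514711 to 43523765, minus strand). Cnn1 and Tagln both lie on chromosome 9, at 22099216 to 22109630 on the plus strand and 45929619 to 45936058 on the minus strand. Myh11 lies on chromosome 16 (14194535 to 14291372, minus strand) and Acta2 on chromosome 19 (34241090 to 34255590, minus strand). Tagln overlaps Pcsk7 and Gm48529 on the opposite strand, and Des overlaps the antisense gene Gm15179. Whether counting used the strand was not given in the sources used here, so these counts could include reads of the partner.

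The genes were first followed in mesenchymal-like cells, a class of clusters named from 16 markers such as Col1a1, Dcn, Lrat and Reln. The clusters were built without the 8 genes and without 25 further contractile genes among the variable genes. At E16.5 the class held 185, 127 and 172 cells in Jag1+/+ replicate 1, the shared library and Jag1Ndr/+ replicate 1, and 169 and 215 in the homozygous replicates. At P3 it held 361, 154, 114 and 105 cells in libraries A to D. All 16 markers were detected in every library, at a summed 3706 to 6777 CPM, the number of counts in every 1000000 UMIs of the class. The class was not pure, since globin genes made up 30.6% to 52.2% of its UMIs at E16.5 and 41.4% to 57.7% at P3. In the whole libraries they made up 27.6% to 51.7% and 16.9% to 24.5%. At P3 the class thus held a larger globin share than its library in every case. Markers of mural cells were sparse, with 4 to 8 of 10 detected and a summed 56.7 to 164 CPM. The cardiac genes Actc1 and Nppa had 0 UMIs in the class in all 9 libraries. Myl7, the other cardiac gene examined, was present, at 31.8 ± 31.4 CPM at E16.5 (SD, n = 5) and 19.2 ± 11.3 CPM at P3 (SD, n = 4).

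Acta2 was detected in every library. At E16.5 it measured 84.0 CPM in Jag1+/+ replicate 1, 119.1 in the shared library, 54.8 in Jag1Ndr/+ replicate 1, and 61.9 and 39.1 in the homozygous replicates, from 54 to 91 UMIs each. At P3 it measured 30.0, 47.1, 92.5 and 35.3 CPM in libraries A to D, from 10 to 63 UMIs. Homozygous replicate 2 was the lowest E16.5 library, and the stages overlapped, since libraries B and C lay above it.

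Tagln varied more between libraries. Its level at E16.5 was 80.3, 89.0 and 51.6 CPM in the 3 libraries without a homozygous label, 61.0 CPM in homozygous replicate 1 and 19.5 CPM in replicate 2. At P3 it was 10.0 and 22.3 CPM in libraries A and B, and 66.1 and 77.6 CPM in libraries C and D. Libraries A and B were low together with homozygous replicate 2, whereas libraries C and D lay within the range of the other E16.5 libraries.

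Myl9 gave narrower values at E16.5, with 47.1, 48.2 and 27.4 CPM in the libraries without a homozygous label and 40.7 and 31.9 CPM in the homozygous replicates. At P3 it was 27.7, 44.6, 74.9 and 31.8 CPM in libraries A to D, with library C above every other library. Tpm2 measured 25.8, 60.3 and 44.4 CPM against 45.3 and 36.9 CPM at E16.5, in the same order. At P3 it was 35.3, 105.3, 48.4 and 21.2 CPM, and library B was the highest of all 9. For both genes the homozygous replicates lay inside the range of the other E16.5 libraries.

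Des, the desmin gene that marks stellate cells in rodents, measured 17.5, 28.6 and 9.68 CPM without the homozygous label and 11.1 and 16.7 CPM with it. At P3 it was 18.6, 27.3, 24.2 and 10.6 CPM. The groups overlapped at both stages. From 3 to 39 UMIs stood behind each value.

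Myh11, Rgs5 and Cnn1 were at the limit of detection, set here at 3 counts per library, which corresponds to 1.43 to 10.6 CPM. Myh11 had 6, 1 and 0 UMIs in the E16.5 libraries without a homozygous label, 6 and 5 in the homozygous replicates, and 4, 6, 0 and 3 in P3 libraries A to D. Rgs5 had 3, 2 and 0 UMIs, then 0 and 10, and 5, 3, 3 and 3 at P3. Cnn1 was found once in homozygous replicate 2 and once in library B, and 0 times in the other 7 libraries. No comparison was read from these 3 genes in mesenchymal-like cells.

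**Figure D1:**
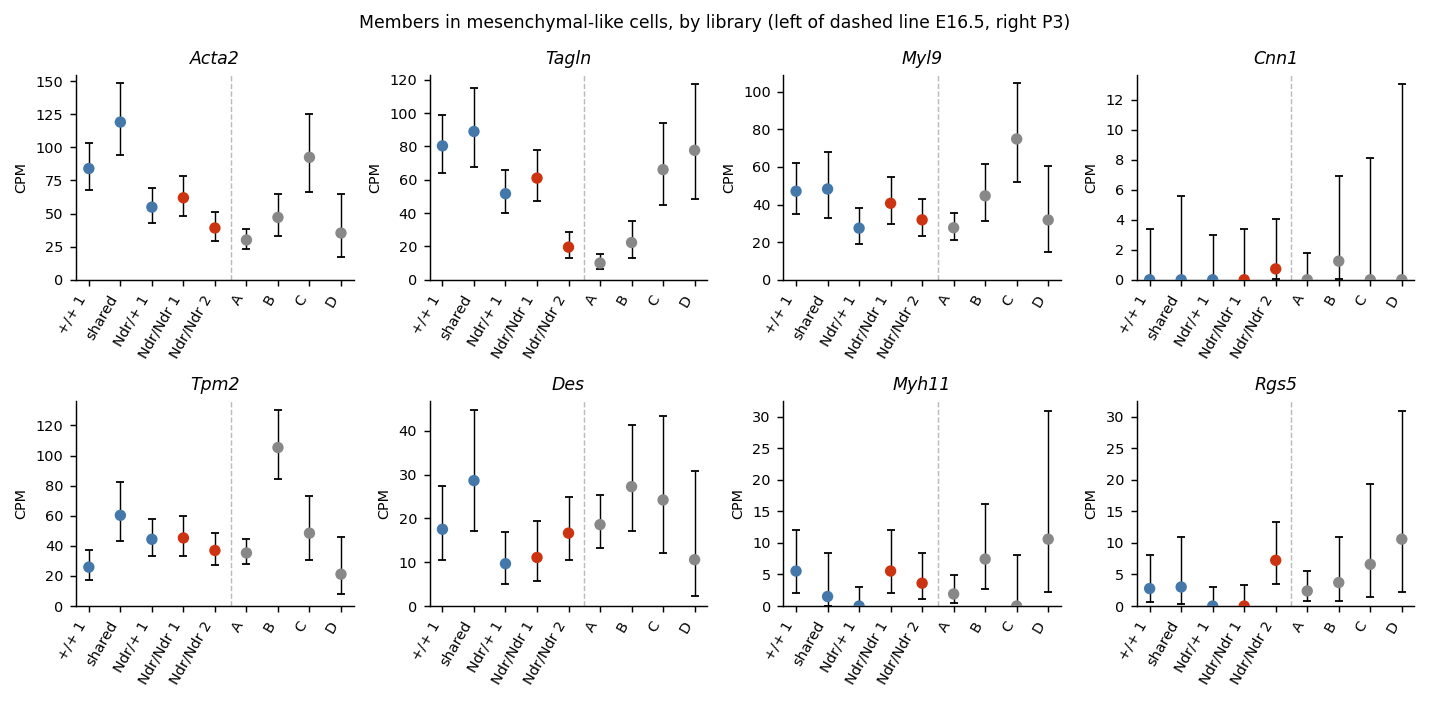
CPM (y axis) of each gene in mesenchymal-like cells of the 9 libraries (x axis), with exact 95% Poisson intervals for counting error only. Blue marks E16.5 libraries without a homozygous label, red the homozygous replicates and grey the P3 libraries A to D. Acta2 and Tagln are lowest at E16.5 in homozygous replicate 2 (39.1 and 19.5 CPM), and Tpm2 peaks in P3 library B at 105.3 CPM.

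The 8 genes were concentrated in a small part of the class. At E16.5, a subcluster led by Raph1, Lum, Postn and Reln held 162 cells, 18.7% of the class, and 64.0% of the UMIs of the 8 genes. All 11 stellate markers were detected in it, but 1 stellate and 1 mural marker were among its 10 leading genes, so it was left without a name. Summed over libraries, Acta2 measured 229 CPM there, Tagln 177, Myl9 116, Tpm2 98.5, Des 52.3, Rgs5 9.76 and Myh11 3.55. Of its 11 Rgs5 UMIs, 8 came from homozygous replicate 2, and Myh11 rested on 4 UMIs. A mesothelial-like subcluster of 58 cells held 12.3% of the UMIs with 102 CPM for Tpm2, 53.0 for Tagln and 12.9 for Acta2. Its Tagln value came mainly from Jag1Ndr/+ replicate 1, with 139 CPM against 0 to 22.8 CPM in the other 4 libraries. A single cell held 24 of the 30 Tagln UMIs there, and without it the value in that library was 33.0 CPM. Without that library the share of the mesothelial-like subcluster in the member UMIs was 8.61%. Mesothelial cells form the outer lining of the liver. A hepatocyte-like subcluster led by Ahsg and Alb held 209 cells and 10.8%. Erythroid-like subclusters held 227 and 77 cells (26.2% and 8.87% of the class) and 4.63% and 1.74% of the member UMIs. Of the 21 member UMIs in the smaller one, 16 came from homozygous replicate 1, and its share was 0.518% without that library. A subcluster of 122 cells (14.1%) held 5.62%. It scored as erythroid-like by its markers, but its leading genes Ebf1, Vpreb1, Vpreb3 and Cd79a are B-cell genes, so that name is not used for it. Levels, shares and fits given for the whole class include these cells. Most cells of the class lay outside the Raph1-led (18.7%) and mesothelial-like (6.68%) subclusters. No subcluster took the name of mural cells or portal fibroblasts.

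At P3 the mesothelial-like subcluster of 116 cells, led by S100a6, C3, Crip1 and Igfbp5, held 52.3% of the member UMIs, and a stellate-like one of 46 cells, led by Cxcl12, Reln, Itga1 and Raph1, held 21.6%. The mesothelial name rested on 2 leading genes, Msln and Upk3b, and Col1a1 was also a leading gene. The mean standardised level was 2.16 for mesothelial and 2.1 for portal fibroblast markers, so the name does not set these cells apart from portal fibroblasts. Mesothelial-like cells measured 142 CPM for Tpm2, 69.3 for Acta2, 57.9 for Myl9, 39.9 for Des and 20.9 for Tagln. In stellate-like cells the levels were 228 CPM for Acta2, 210 for Tagln, 191 for Myl9, 111 for Des, 92.6 for Tpm2 and 49.4 for Rgs5. The first 3 and Tpm2 rested on library C. Without it they were 58.3 CPM for Acta2, 131 for Tagln, 87.4 for Myl9 and 51.0 for Tpm2, so that Acta2 no longer came first. Without library A they were 455, 390, 351 and 169 CPM. An unnamed subcluster of 118 cells led by Hemgn, a gene of blood-forming cells, held 16.54%, of which library B gave 70 of 111 UMIs, and 8.87% without library B. A single cell of library B, the one with all 8 genes, held 55 of those 70 UMIs. Erythroid-like subclusters of 228 and 149 cells, 31.1% and 20.3% of the class, held 2.83% and 2.09%, or 1.13% and 0.945% without library C. The number of cells per library was small, with 8 to 20 stellate-like and 9 to 54 mesothelial-like cells. These subclusters made up 6.27% and 15.8% of the class, and fits of the class include its other cells.

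Single libraries decided some of these P3 levels. Of the Acta2 UMIs in stellate-like cells, 2, 0, 29 and 6 came from libraries A to D. Those in mesothelial-like cells were 53, 19, 1 and 0. Library B had another 19 in the Hemgn-led subcluster, 16 of them in the cell with all 8 genes and 3 in the other 33 cells. Acta2 was thus counted mainly in mesothelial-like cells in library A, in mesothelial-like cells and that single cell in library B, and mainly in stellate-like cells in libraries C and D. Mesothelial-like Acta2 was 44.2 CPM without library A, and mesothelial-like Tagln was 35.4 CPM without library A and 11.9 CPM without library B. Without library C the stellate-like share of all member UMIs was 12.1%. The subclusters were made from cells of all libraries without integration, so library and subcluster are partly mixed.

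In the Raph1-led subcluster at E16.5, libraries held 38, 34 and 27 cells without and 20 and 43 with the homozygous label. Acta2 measured 273, 271 and 201 CPM against 315 and 137 CPM. Tagln measured 265, 206 and 132 CPM against 274 and 61.8 CPM. For both genes homozygous replicate 1 was the highest library and replicate 2 the lowest. Myl9 (87.6 to 138 CPM against 151 and 111), Tpm2 (74.0 to 127 against 103 and 91.1) and Des (37.1 to 70.0 against 47.9 and 61.8) were not lower in both homozygous replicates either.

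**Figure D2:**
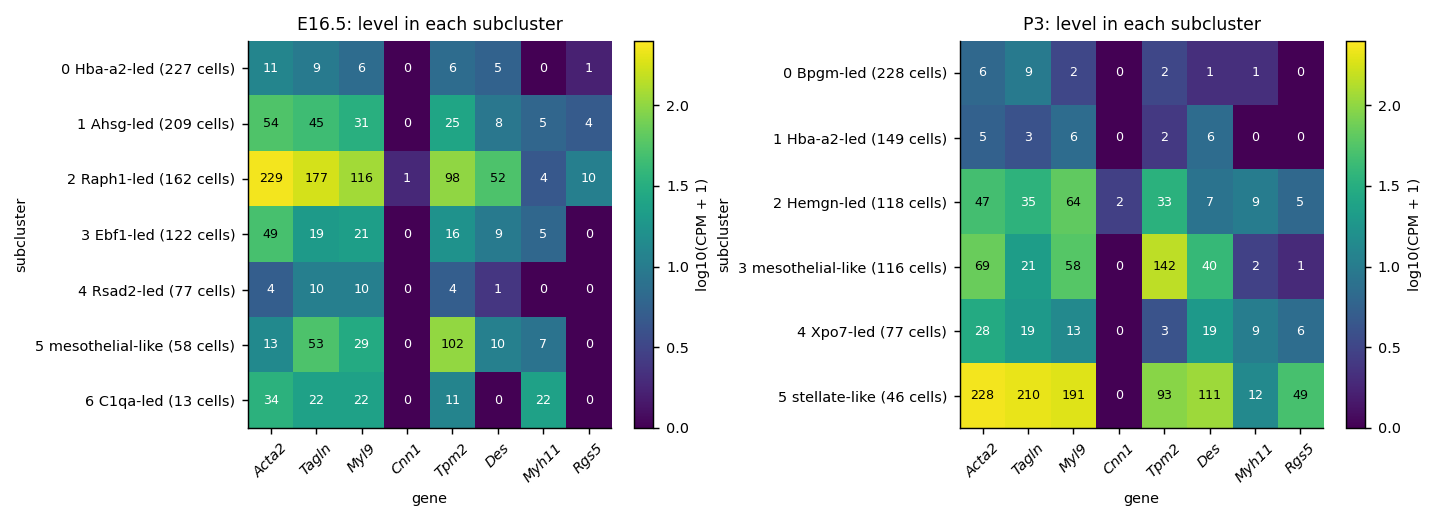
Level of each gene (x axis) in each subcluster of mesenchymal-like cells (y axis, with a leading gene or name and cell numbers) at E16.5 and P3. Colour gives log10(CPM + 1) and the printed value the CPM summed over libraries, highest for Acta2 in the Raph1-led subcluster at E16.5 (229 CPM) and in stellate-like cells at P3 (228 CPM, and 58.3 CPM without library C).

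Within the class, few cells carried most of the signal. Cells with UMIs of at least 3 of the 8 genes numbered 18, 13 and 15 in the E16.5 libraries without a homozygous label, 11 and 11 in the homozygous replicates, and 11, 8, 10 and 7 in P3 libraries A to D. They made up 5.12% to 10.2% of the class at E16.5 and 3.05% to 8.77% at P3. The 10 richest cells of each library held 53.0% to 89.3% of its member UMIs. A single cell of library B carried all 8 genes, with 55 of its 14319 UMIs. It held 5 of the 6 Myh11 UMIs of that library, and without it the class level in library B was 27.8 CPM for Acta2 and 23.97 CPM for Myl9.

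Shares of cells with a UMI were compared after thinning each cell to 1000 UMIs, because depth differed between libraries. At least 1 of the 8 genes was then found in 13.8% ± 4.93 of mesenchymal-like cells at E16.5 (SD, n = 5) and 9.98% ± 2.35 at P3 (SD, n = 4). Erythroid-like cells, which should lack the genes, gave 0.3% to 0.85%, at medians of 2760 to 9339.5 UMIs per cell against 2277 to 5605.5 in the mesenchymal-like class. Acta2 was found in 5.70% ± 1.97 and 3.26% ± 1.53 of mesenchymal-like cells, and Tagln in 4.15% ± 2.15 and 2.14% ± 1.35. Without thinning, the shares were 16.9% and 6.16% for Acta2 and 34.6% and 21.9% for any of the 8. At 1000 UMIs the gap between stages was smaller, beside the spread between libraries, than without thinning. Thinned to 2000 UMIs, in cells with at least that many, Acta2 was found in 9.78% ± 2.44 and 4.62% ± 3.38. Any of the 8 was then found in 22.4% ± 5.49 and 15.2% ± 4.23. Thinning also discards counts, so the part of depth in the gap was not tested.

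The first comparison asked how the genes stood in homozygous embryos. In edgeR, 0 of 7412 genes passed an adjusted p of 0.05 in mesenchymal-like cells (0% called in either direction). At an unadjusted p under 0.05 there were 189 genes, and DESeq2 also called 0. Of the 8 genes, 5 passed the low-count filter. The mean of Tagln was 40.3 ± 29.3 CPM in homozygotes (SD, n = 2) and 73.6 ± 19.5 CPM in the others (SD, n = 3), which gave a fitted log2 difference of -0.76 (SE 0.40). The mean of Acta2 was 50.5 ± 16.1 and 86.0 ± 32.2 CPM, or -0.62 (SE 0.29) on the same scale. Des differed by -0.22 (SE 0.37), Myl9 by -0.06 (SE 0.29) and Tpm2 by 0.03 (SE 0.33). The median of the 5 was -0.22 and that of all genes tested -0.00. The members were chosen with this contrast known, so these values support nothing by themselves.

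Homozygous replicate 2 set the size of the lower values. Without it, the log2 difference was -0.09 for Tagln and -0.25 for Acta2. Without homozygous replicate 1, it was -1.87 and -1.06. Single cells weighed on these levels too, in a check added after the values were seen. Without the cell with the most member UMIs in each library, Tagln was 58.5, 72.2 and 33.2 CPM against 49.2 and 13.2 CPM in homozygotes. Acta2 was 76.2, 104.5 and 54.7 CPM against 55.9 and 32.9 CPM, and the groups overlapped for both genes. After TMM normalisation, 0 of the 5 tested members had both homozygous libraries below the other 3 (7.72% of all tested genes did) and 0 had both above (7.96%). Nothing is read from these counts. Acta2 came closest, with 69.1 and 39.2 normalised CPM in homozygotes and 68.7 to 91.1 in the others.

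The definition of the cells also moved the size. With the mesothelial-like subcluster left out, the values were -0.43 for Acta2 and -0.36 for Tagln. With another random seed of the clustering they were -0.58 and -0.83. With cells chosen by at least 3 UMIs of the mesenchymal markers (the marker gate), they were -1.08 and -1.43. Of the gate's E16.5 cells, 49.0% were of the mesenchymal-like class. Endothelial-like and hepatocyte-like barcodes held 24.7% and 29.3% of its Acta2 UMIs, and 31.0% and 21.4% of its Tagln UMIs. Per 1000 UMIs of the 16 mesenchymal markers, Acta2 gave 20.0, 19.6 and 13.9 UMIs in the libraries without a homozygous label and 13.2 and 8.86 in the homozygous replicates. Tagln gave 19.1, 14.7 and 13.06 against 12.98 and 4.43, and for both genes the nearest libraries of the groups were close. The makeup of the class varied too, with 999 and 1064 CPM of stellate markers in homozygotes against 713 to 1437 CPM, and 419 and 283 CPM of mesothelial markers against 162 to 377 CPM. Their part in the lower values was not tested. Doublet marking removed 5.1%, 7.3% and 6.5% of the class barcodes without the homozygous label, and 0% and 2.7% with it. With doublets kept, 0 genes were called as well.

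Whether related genes shifted together at E16.5 was not tested, and with 0 genes called in the whole fit, the absence of calls among them decides nothing. Of 25 further contractile genes, 17 were tested and 0 called, with 7 higher and 10 lower in homozygotes and a median log2 fold change of -0.04. Csrp2, a LIM-domain protein of smooth muscle and stellate cells, had the highest value, with 85.0 and 44.2 CPM in homozygotes and 40.6, 25.6 and 24.2 CPM in the others (1.15, SE 0.37), and was not called. Of 15 regulators, 2 of them listed under different symbols at each stage, 9 were tested and 0 called, with a median of 0.16. Jag1 itself differed by -0.52 (SE 0.39) in these cells and was not called.

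The second comparison asked whether the genes differed between stages, which played no part in their choice. Stage cannot be told apart from the digestion, the software version and the gene list, which changed with it. Of 7036 genes tested in mesenchymal-like cells, edgeR called 1437 (20.4%), with 739 higher (10.5%) and 698 lower (9.92%) at P3. Of the 8 members, 5 were tested and 0 were called, and none had an unadjusted p under 0.05. DESeq2 likewise called 0 of them, and 1179 genes in all. Acta2 averaged 71.8 ± 31.0 CPM at E16.5 (SD, n = 5) and 51.2 ± 28.4 CPM at P3 (SD, n = 4), and its fitted log2 difference was -0.38 (SE 0.31), with an edgeR adjusted p of 0.420. Tagln averaged 60.3 ± 27.2 and 44.0 ± 32.9 CPM, with a difference of -0.62 (SE 0.50) and an edgeR adjusted p of 0.417. The difference was within the spread between libraries for both.

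The other 3 tested members had values above 0. Myl9 averaged 39.1 ± 9.20 and 44.7 ± 21.4 CPM, a difference of 0.27 (SE 0.26), and edgeR's adjusted p was 0.504. Tpm2 averaged 42.5 ± 12.6 and 52.6 ± 36.9 CPM, a difference of 0.45 (SE 0.31), and edgeR's adjusted p was 0.336. Des averaged 16.7 ± 7.49 and 20.2 ± 7.33 CPM, a difference of 0.54 (SE 0.27), and edgeR's adjusted p was 0.176. The median of the 5 was 0.27 beside 0.02 over all genes tested. Leaving out library B turned Tpm2 to -0.01, and leaving out library C turned Myl9 to -0.05. With another random seed of the clustering, Des was called (0.81, adjusted p = 0.0230 in edgeR), whereas the other 4 were not, beside 31.4% of 7077 genes called and 16.1% called as higher.

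The makeup of the class differed between stages as well. Mesothelial markers summed to 162 to 419 CPM at E16.5 and 293 to 1291 CPM at P3, stellate markers to 713 to 1437 and 649 to 1175 CPM, and neutrophil markers to 844 to 4361 and 5220 to 15599 CPM. Without the mesothelial-like subcluster, the stage values were -0.19 for Acta2, -0.01 for Tagln, 0.61 for Myl9, -0.15 for Tpm2 and 0.63 for Des, and none was called. The part of the other cell types was not tested. When cells were taken by the marker gate instead of by cluster, Myl9 (log2 fold change 4.40) and Tpm2 (3.13) were called as higher at P3, of 6 members tested, beside 36.9% of 10985 genes called and 18.2% called as higher. In that gate, 15 megakaryocyte-like barcodes, 2.16% of its P3 cells, held 97.0% of the Myl9 UMIs and 90.0% of the Tpm2 UMIs.

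Other genes of the pathway were taken from the same lists. Of the 25 further contractile genes, 16 were tested, 2 rose, 0 fell, and the median log2 fold change was 0.19. The 2 called genes of 16 stand beside 20.4% of all tested genes called, 10.5% as higher and 9.92% as lower. Csrp2 rose from 43.9 ± 24.6 to 113 ± 70.5 CPM, by 1.53 (SE 0.42) on the log2 scale, with an edgeR adjusted p of 0.0188. The actin crosslinker filamin A, encoded by Flna, rose from 86.1 ± 29.8 to 116 ± 32.0 CPM, by 0.58 (SE 0.20), with an edgeR adjusted p of 0.0484. Both calls were fragile. Of 23 alternatives, 7 lost Csrp2, among them the fits without the mesothelial-like subcluster (0.42), without Jag1Ndr/+ replicate 1 (1.41), without library A (1.18) and without library B (1.36). Flna was lost in 17 and turned to -0.0041 without the mesothelial-like subcluster, and it stayed called with 1 library left out only for the shared library and library D.

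Of the 15 regulators, 8 were tested, 1 rose and 2 fell, beside the same 20.4% of all tested genes called, and the median was -0.10. Tgfb1, the growth factor that drives stellate cells towards a contractile state, rose from 20.2 ± 2.59 to 47.4 ± 4.54 CPM, by 1.35 (SE 0.21) on the log2 scale, with an edgeR adjusted p of 0.000541. Srf fell from 11.7 ± 3.80 to 1.53 ± 1.84 CPM (-2.17, SE 0.50), with an edgeR adjusted p of 0.00722 and 0 UMIs in libraries C and D. Jag1 fell from 14.7 ± 6.66 to 2.55 ± 3.11 CPM (-2.58, SE 0.51), with an edgeR adjusted p of 0.00282 and 0 UMIs in library C. For Tgfb1 every P3 library was above every E16.5 library, as for 7.7% of all tested genes. For Srf and Jag1 every P3 value was below every E16.5 value, as for 9.47%. However, Srf had 5, 3, 0 and 0 UMIs in libraries A to D and Jag1 4, 1, 0 and 2. The floor of 3 counts was 6.61 CPM in library C and 10.6 CPM in library D, whereas the lowest E16.5 values were 6.45 CPM for Srf and 8.69 CPM for Jag1, so the order is not resolved at this depth for Srf in libraries C and D and for Jag1 in library D. Both genes passed the low-count filter through their E16.5 counts, which favours a call as lower at P3. Tgfb1 was called in all 23 alternatives, but no fit could be restricted to the named subclusters. Neutrophil markers of the class were also higher at P3, and globin genes made up 41.4% to 57.7% of its P3 UMIs. The part of blood cells in the Tgfb1 value was not tested. Jag1 was not called in the libraries with a single, non-wild-type label (-1.95), and the alternatives in which Srf and Jag1 were tested are no separate support, since they passed the filter in the same way. The immediate early genes Fos, Jun and Egr1, singled out after their values were seen, had means of 248, 159 and 135 CPM at E16.5 and 82.0, 70.4 and 46.7 CPM at P3. Their part in the Srf value was not tested. Notch3, the Notch receptor of mural cells, measured 6.19 ± 2.16 CPM at E16.5 and 2.01 ± 1.87 CPM at P3 and did not pass the low-count filter. Myocd, the smooth muscle coactivator of serum response factor, was found only in library A, with 3 UMIs.

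**Figure D3:**
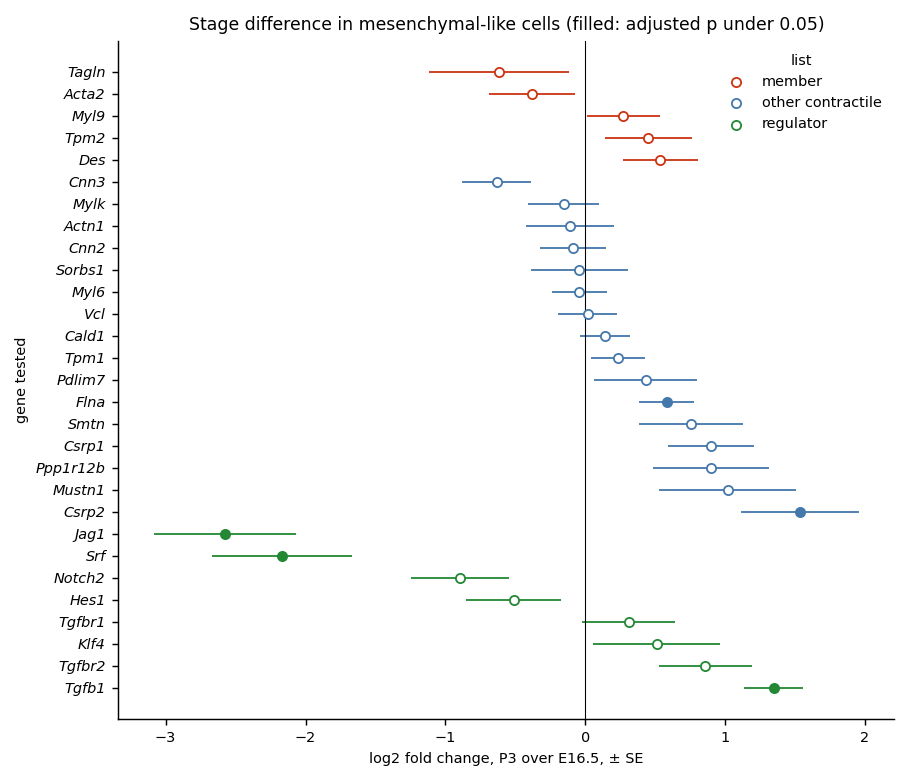
Log2 fold change of P3 over E16.5 in mesenchymal-like cells (x axis, bars are SE) for every tested gene of the 3 lists (y axis). Filled points have an adjusted p under 0.05 in edgeR, which holds for none of the 5 members, for Csrp2 and Flna, and for Tgfb1 (1.35), Srf (-2.17) and Jag1 (-2.58).

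At P3, library C with its homozygous label was set beside library D with its heterozygous label. With 1 library each there is no replicate check, and the exact 95% Poisson intervals cover counting error only. For Acta2, library C gave 92.5 CPM (66.7 to 125) and library D gave 35.3 CPM (16.9 to 64.9), and the intervals were apart. That separation rested on a single stellate-like cell with 15 of the 42 Acta2 UMIs of library C. Without the cell with the most member UMIs in each library, a check added after the values were seen, Acta2 was 59.8 CPM (39.4 to 87.0) and 35.5 CPM (17.02 to 65.3), with overlapping intervals. For Tagln they were 66.1 CPM (44.6 to 94.3) and 77.6 CPM (48.7 to 118), and the intervals overlapped. Myl9 stood at 74.9 CPM (51.8 to 105) beside 31.8 CPM (14.5 to 60.3). Tpm2 stood at 48.4 CPM (30.4 to 73.3) beside 21.2 CPM (7.77 to 46.1), and Des at 24.2 CPM (12.1 to 43.3) beside 10.6 CPM (2.18 to 30.9), with overlapping intervals for these 3 genes. The total UMIs of the class were 454146 and 283360.

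The genes most like the members were ranked by their correlation with the summed CPM of the 8 over pseudobulks of library and subcluster. Points share libraries and depth, and the coefficients are a description. Over 23 pseudobulks at E16.5, the 8 nearest of 4210 genes were Marcks (Pearson r 0.92), Wdr45b and Rtn4 (0.91 each), and Ifitm1, Hand2, Samd5, Fermt2 and Nrk (0.90 each). Over 18 pseudobulks at P3, the nearest of 3696 genes included Stip1 (0.94), Prpf4b (0.91), and Eif1b, Ctr9, Paip2, Vps28 and Selenoh (0.90 each). No gene was on both lists.

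Most copies of several members lay outside mesenchymal-like cells. The class held 13.2% to 31.3% of all Acta2 UMIs of a library, 16.49% to 42.3% of Tagln and 16.7% to 46.0% of Des, but 0.493% to 9.16% of Myl9 and 0.565% to 8.06% of Tpm2. The other classes were therefore examined. Des was highest in mesenchymal-like cells at both stages, and endothelial-like cells had 3.20 ± 2.03 CPM at E16.5 (SD, n = 5) and 7.32 ± 8.58 CPM at P3 (SD, n = 4), with 20.2 CPM in library C and 2.46 to 3.91 in the others. Without barcodes that held at least 10 UMIs of the mesenchymal markers, the endothelial-like values were 0.770 ± 1.18 and 2.46 ± 2.59 CPM. Myh11 averaged 3.24 ± 2.46 CPM in mesenchymal-like and 2.27 ± 1.62 CPM in endothelial-like cells at E16.5, and 4.98 ± 4.89 and 0.344 ± 0.687 CPM at P3. Without the same barcodes, endothelial-like Myh11 at E16.5 went from 28 to 3 UMIs, or 0.2504 ± 0.230 CPM. Rgs5 averaged 2.60 ± 2.97 CPM in mesenchymal-like cells at E16.5. At P3 it was spread over endothelial-like (6.27 ± 4.32 CPM), mesenchymal-like (5.82 ± 3.63 CPM) and basophil and mast-like cells (5.404 ± 1.47 CPM), from 13 to 21 UMIs each, and these means lay within each other's spread.

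Myl9 and Tpm2 were high in megakaryocyte-like cells, the platelet precursors, which use nonmuscle myosin and tropomyosin. The cluster was led by Pf4 and Ppbp at both stages and built without the 8 genes among its variable genes. Myl9 measured 132, 162, 119, 189 and 148 CPM in the E16.5 libraries and 1808, 1392, 4166 and 1700 CPM in P3 libraries A to D. Every P3 library was above every E16.5 library, but the share of all genes with that order was not computed in this class, so nothing is read from it. The means were 150 ± 27.2 CPM (SD, n = 5) and 2267 ± 1278 CPM (SD, n = 4), which is 3.45 (SE 0.35) on the log2 scale, with an edgeR adjusted p of 5.96e-06. Tpm2 rose in the same cells, from 120, 114, 64.3, 84.7 and 109 CPM to 429, 534, 802 and 912 CPM, by 2.30 (SE 0.23), with an edgeR adjusted p of 5.56e-06. The background was broad, since 42.4% of 8599 genes were called in this class and 21.8% were called as higher. Stage fits in this and the other classes below were added after the data were seen, so their p-values are not those of planned tests.

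Both calls held with each library left out, at 2.90 to 3.68 for Myl9 and 2.14 to 2.45 for Tpm2. The way doublets were marked mattered more. With doublets scored on log values, as was first done, 31.8% of the megakaryocyte-like barcodes of library A were marked in place of 0.758%. Myl9 was then still called (2.86, adjusted p = 0.0422 in edgeR) and Tpm2 was not (1.48, adjusted p = 0.169), beside 26.5% of 8347 genes called. With this score, Myl9 was lost in 7 of 9 fits with 1 library left out, staying called only without library A (3.25) or library D (3.24). Its value was lowest without library C (1.27, adjusted p = 0.224 in edgeR) and 2.78 to 3.105 without library B or any single E16.5 library. Megakaryocyte-like cells had medians of 5100 to 6845 UMIs at E16.5 and 4416 to 13079 at P3. Of 372 such cells at P3, 15 that also passed the marker gate held 5132 of 16242 Myl9 UMIs and 1473 of 4463 Tpm2 UMIs. At E16.5, 6 of 1134 held 184 of 1840 and 58 of 1230. The part of these barcodes in the stage differences was not tested.

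**Figure D4:**
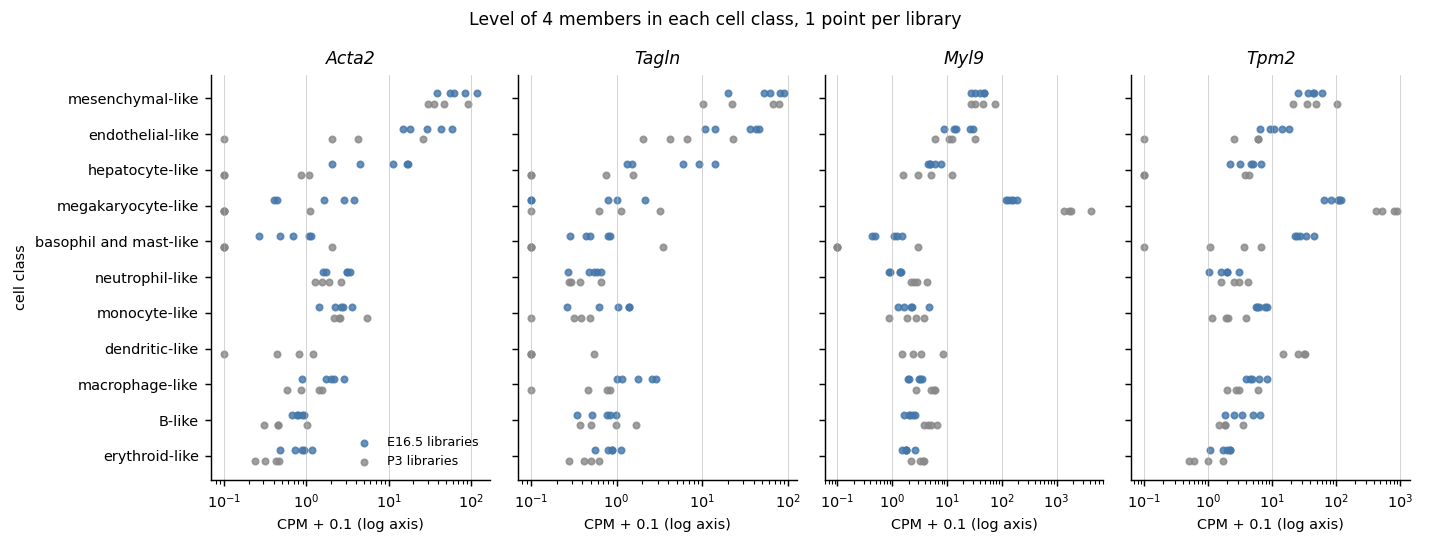
CPM + 0.1 (x axis, log scale) of Acta2, Tagln, Myl9 and Tpm2 in each cell class (y axis), with 1 point per library, blue for E16.5 and grey for P3. Acta2 and Tagln are highest in mesenchymal-like cells, and Myl9 and Tpm2 in megakaryocyte-like cells, where Myl9 reaches 4166 CPM in P3 library C.

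In endothelial-like cells, Acta2, Tagln and Tpm2 were called as lower at P3, beside a background of 28.6% of 10056 genes called and 14.7% called as lower. The fit was added after the data were seen. All 3 passed the low-count filter through their E16.5 counts, with 11 to 31 UMIs in the 4 P3 libraries together, which favours a call in this direction. Acta2 measured 58.3, 29.4, 42.8, 18.3 and 14.8 CPM in the E16.5 libraries and 4.09, 0, 26.1 and 1.95 CPM in libraries A to D, where library C overlapped the embryonic libraries. Its means were 32.7 ± 18.0 CPM (SD, n = 5) and 8.03 ± 12.2 CPM (SD, n = 4), with a log2 difference of -2.16 (SE 0.65) and an edgeR adjusted p of 0.0229. DESeq2 gave an adjusted p of 0.059. Tagln went from 29.5 ± 16.2 to 8.79 ± 9.35 CPM (-1.86, adjusted p = 0.0281 in edgeR), and Tpm2 from 11.9 ± 4.64 to 3.56 ± 2.88 CPM (-2.01, adjusted p = 0.0136).

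These calls did not hold throughout. Tpm2 alone stayed called with each library left out (-2.39 to -1.63, highest adjusted p = 0.0437 in edgeR), and DESeq2 gave it an adjusted p of 0.0035. These fits used the same low-count filter, so for none of the 3 genes are they separate support for a lower value. Acta2 was no longer called without library A (adjusted p = 0.0737 in edgeR, log2 difference -1.93), library B (0.0576, -1.78) or library D (0.0502, -1.92). Without library C the differences were larger, at -3.86 for Acta2 and -2.74 for Tagln, and both were called (adjusted p = 0.00524 and 0.0171 in edgeR). Tagln was lost without those 3 (-1.77, -1.64 and -1.62) and also without Jag1+/+ replicate 1 (-1.72) or Jag1Ndr/+ replicate 1 (-1.57). With doublets scored on log values, none of the 3 was called, at -1.83 for Acta2, -1.53 for Tagln and -1.51 for Tpm2, beside 27.1% of 10087 genes called. Doublet marking was uneven in this class, from 0.467% of barcodes in homozygous replicate 1 to 34.0% in the shared library.

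These levels came from few barcodes that also held mesenchymal markers. When barcodes with at least 10 UMIs of the mesenchymal markers were left out (62 of 1274 at E16.5 and 43 of 573 at P3), the Acta2 UMIs of E16.5 went from 409 to 32 and the Tagln UMIs from 371 to 29. Acta2 then averaged 2.92 ± 1.37 CPM at E16.5 and 2.41 ± 1.92 CPM at P3, and Tagln 2.58 ± 1.71 and 1.90 ± 1.67 CPM. Neither these genes nor Tpm2 passed the low-count filter any longer, so their stage difference was not tested there, where 27.1% of 9470 genes were called. At E16.5, the 42 endothelial-like cells with at least 3 of the 8 genes had medians of 124.5 mesenchymal-marker and 140 endothelial-marker UMIs and of 33193 UMIs in all, against 7256.5 in the class. The 33 hepatocyte-like cells of this kind had medians of 80 mesenchymal-marker and 4229 hepatocyte-marker UMIs, and of 37689 UMIs against 4206 in the class. The 68 mesenchymal-like cells had a median of 9179 UMIs against 4682.5.

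**Figure D5:**
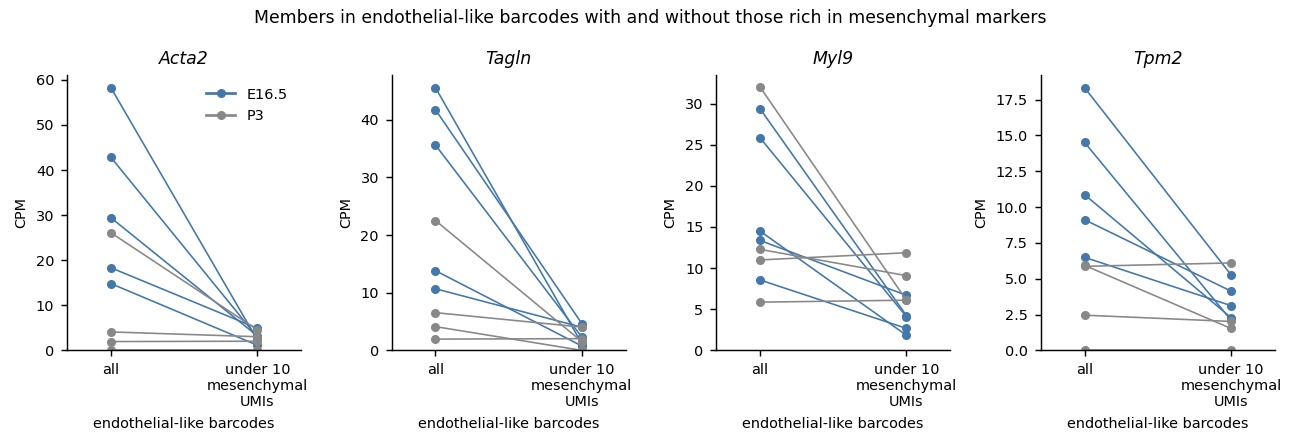
CPM (y axis) of 4 members in endothelial-like barcodes, using all barcodes (left) or those with under 10 UMIs of the mesenchymal markers (right), with 1 line per library, blue for E16.5 and grey for P3. The mean of Acta2 goes from 32.7 to 2.92 CPM at E16.5.

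Single members also appeared in blood cells. In a neutrophil-like cluster led by Retnlg, Acta2 measured 8.34, 5.38, 7.40, 6.49 and 5.62 CPM in the E16.5 libraries, from 229 UMIs in 194 of 3619 cells. At P3 it measured 5.39, 10.8, 7.06 and 6.43 CPM, from 105 UMIs in 98 of 3059 cells. Erythroid-like cells, which should lack the gene, had 0.742 ± 0.258 CPM at E16.5 and 0.262 ± 0.104 CPM at P3. Tagln, which accompanies Acta2 in mesenchymal-like cells, was at 0 to 2.32 CPM in these cells. A stage fit of the whole neutrophil-like class was also added after the data were seen. In this class, Acta2 differed between stages by -0.83 on the log2 scale and was not called in edgeR (adjusted p = 0.0621), while DESeq2 gave an adjusted p of 0.034. Myl9 measured 1.10 ± 0.286 and 2.87 ± 0.926 CPM there, a log2 difference of 1.11 (SE 0.26) with an edgeR adjusted p of 0.00373, beside a background of 54% of 11481 genes called and 27.5% called as higher. Erythroid-like cells, which should lack the gene, had 1.79 ± 0.431 and 3.103 ± 0.728 CPM of Myl9, so the neutrophil-like level is at background and is not read as expression.

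Cnn1 was found mainly in B-lineage cells. A B-like cluster led by Vpreb1, a gene of the pre-B cell receptor, held 153 of its UMIs at E16.5, 78.5% of all, at 3.50 ± 1.13 CPM (SD, n = 5) and between 2.096 and 4.75 CPM in each library. At P3, a cluster led by Igll1, which encodes the partner of Vpreb1, held 29 UMIs, 53.7% of all, at 2.58 ± 0.432 CPM (SD, n = 4). Megakaryocyte-like cells at P3 had 1.10 ± 1.40 CPM from 6 UMIs. Mesenchymal-like cells had 2 UMIs in 9 libraries.

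Tpm2 was present in a basophil and mast-like cluster led by Ifitm1 at E16.5, at 32.4 ± 9.87 CPM (SD, n = 5) from 823 UMIs. At P3 the basophil and mast-like class had 2.81 ± 3.03 CPM (SD, n = 4) from 5 UMIs. In the same stage, a dendritic-like cluster led by Siglech, a gene of plasmacytoid dendritic cells, measured 56.9, 96.4, 92.4 and 205 CPM of Tpm2 in libraries A to D, from 151 UMIs. Its mean was 113 ± 64.0 CPM (SD, n = 4), beside 52.6 ± 36.9 CPM in the mesenchymal-like class at the same stage. In library B the mesenchymal-like value was the higher one, at 105.3 CPM.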

How the data were processed

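Per the file headers, the authors deposited raw UMI counts, not normalised, for each gene and barcode of 12 samples, with software version 3.1.0 at E16.5 and 3.0.2 at P3. Per the submitters' processing notes, Cell Ranger 2.1.1, R 4.1.2, Seurat and mm10 were used, in roles not stated there, and the Cell Ranger version differs from the headers. Counting options were not given in the sources used here.

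Matrices were compared by barcode and reduced to 9 libraries. Library C is the homozygous matrix of replicate 1 without the barcodes of library A. Pairs of the 9 libraries shared 0% to 1.54% of the smaller one's barcodes. The minimum was 1000 UMIs per barcode and the maximum 15% mitochondrial UMIs. Doublets were scored per library by the steps of Scrublet, computed here with 2 simulated doublets per barcode and an expected doublet fraction of 0.008 for every 1000 barcodes in the library. In Jag1Ndr/Ndr replicate 1 no score threshold was found, and the top 5% of scores were marked. Clusters with over 50% of barcodes marked were also removed. Each stage was clustered without integration (2000 variable genes, 30 components, 15 neighbours, Leiden at resolution 1 in igraph 0.11.9), and mesenchymal-like cells were subclustered (1000 variable genes, resolution 0.6). Clusters took the name of the list with most markers among their 10 leading genes, with at least 3 detected and no tie. The names are a reconstruction and can differ from those of the authors.

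The clustering and doublet steps were revised after values of the members had been seen. An earlier doublet score, on log values, was replaced because it marked many megakaryocyte-like and mesenchymal-like barcodes of single P3 libraries, and it was kept as an alternative, as was another random seed of the clustering.

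UMIs were summed per library and class, and libraries with under 20 cells of a class were left out. edgeR 4.0.16 (R 4.3.3) was used with filterByExpr, TMM and the quasi-likelihood test, with Benjamini-Hochberg adjustment over all genes tested and a threshold of 0.05. DESeq2 1.42.0 was an alternative. The stage fit used the 22519 genes listed at both stages. Both fits were tested on simulated data with 200 genes changed by 2 on the log2 scale. The genotype fit, on 7412 genes, recovered 84% of them with 1 false call, and the stage fit, on 7036 genes, 96.5% with 7 false calls. The simulated counts used pooled means and the median dispersion for every gene. They lack the spread of single genes and the differing makeup of libraries, so these rates do not give the sensitivity for the members. Nothing beyond the individuals named in the design text says how samples were prepared in parallel, so p-values measure the spread between these libraries.

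The 8 members and the lists were chosen with earlier results of these data known. The text names all members, the genes of both other lists that passed a test (at most 10 by size), Notch3, Jag1, Srf and Myocd in any case, and the 8 genes most like the members, of which 1 at P3 is not reported here. Csrp2 at E16.5 was named after its value was seen. Alternatives were other normalisations, filters, cell definitions and thinning depths, a replicate block, and each library left out in turn. Intervals and floors cover counting error only.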

Additional observations from a re-analysis of the deposited data

Results flagged for a closer look

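Among 26 groups of 4 or 5 libraries examined for a library far from the others, 3 held one, and chance gives about 1 in 20. In megakaryocyte-like cells at P3, library C stood far above the others for Myl9, at 4166 CPM against 1392 to 1808 CPM in libraries A, B and D. The stage difference of Myl9 in these cells was fitted after the data were seen. It was called with each library left out, and was 2.90 on the log2 scale without library C. With doublets scored on log values it was lost in 7 of 9 such fits, and was 1.27 without library C (adjusted p = 0.224 in edgeR).

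The other 2 concern Cnn1 in mesenchymal-like cells and rest on 1 UMI each. Jag1Ndr/Ndr replicate 2 measured 0.724 CPM beside 0 in the other 4 E16.5 libraries, and library B measured 1.24 CPM beside 0 in the other 3 P3 libraries. Both values are under the limit of 3 counts.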

How the results depend on the processing

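At E16.5 the number of genes called between genotypes moved from 0 to 28 without a filter on low counts. It ranged from 0 to 4 with each library left out, where dropping Jag1+/+ replicate 1 or Jag1Ndr/+ replicate 1 gave 1 call and dropping the first homozygous replicate gave 4. Between stages, 1437 genes became 4057 with the marker gate, where 2 members were called, 955 without the mesothelial-like subcluster, and 447 with only the libraries that had a single, non-wild-type label. With another random seed of the clustering, chosen after seeing the data, they became 2221, and 1 member was called. The number ranged from 985 to 1758 with each library left out, and no member was called in any of those 9 fits. With doublets scored on log values, 0 genes were called between genotypes and 1028 between stages, with no member among them. That was the earlier score, and the score of the main fits replaced it after values of the members had been seen. Without scaling factors, the median of all genes between stages was -0.13, against 0.02 with TMM, and 378 genes were higher and 645 lower, against 739 and 698.

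Stage values of 4 members changed sign in some alternatives. With only single-label, non-wild-type libraries, Acta2 was 0.31, Tagln 0.62 and Tpm2 -0.25. Tpm2 was -0.15 without the mesothelial-like subcluster and -0.00904 without library B (range -0.00904 to 0.61 with each library left out). Myl9 was -0.0494 without library C (range -0.0494 to 0.41), and Flna was -0.0041 without the mesothelial-like subcluster. The cause was not tested. Des kept its sign between stages in all 23 alternatives. Between genotypes, Acta2 ranged from -1.08 to -0.25 and Tagln from -1.87 to -0.09 over 18 alternatives. Their sign was known when the members were chosen and supports nothing. The minimum of 2000 UMIs left the E16.5 values as they were.

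The replicate numbers did not pair the libraries, since the deviations of same-numbered libraries correlated at 0.01 to 0.10 between genotypes and from -0.25 to 0.21 between stages. With the replicate block, 0 genes were called between genotypes and 1329 between stages. The calls of the members did not change, while Flna (0.59) was no longer called. Fits of the stellate-like subcluster alone, or of both named subclusters alone, could not be run, because no E16.5 subcluster was named stellate-like and the named ones had too few cells per library. Depth limits Cnn1, Myh11 and Rgs5, and shares of cells rose with it, for Acta2 at E16.5 from 5.70% at 1000 UMIs to 9.78% at 2000 UMIs.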
